A study of Mus musculus with 2 samples.

Results

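Wnt ligands, their Frizzled receptors and the secreted proteins that hold them back were measured in mouse pancreatic tumours grown under different housing. All genes that the arrays name Wnt, Fzd, Sfrp or Dkk with a number were taken, together with Wif1, which gave 38 genes of 28785 on the array. They comprise 19 Wnt ligands, 10 Frizzled receptors, 4 secreted Frizzled-related proteins (Sfrp) with Wif1, and 4 Dickkopf (Dkk) proteins. The rule used names only and no measured value, though the family was chosen with earlier results of these data known.

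The tumours came from Panc02 cells, a mouse pancreatic ductal adenocarcinoma line, placed under the skin of C57BL/6 mice that had been assigned to a standard or an enriched environment at 3 weeks of age and were kept there for 5 weeks after injection. An enriched environment is housing with more space, objects and company than a standard cage. Total RNA from the tumours of 6 mice per housing was pooled, so each housing is represented by 1 pool on 1 array (the standard pool and the enriched pool), and the values hold no spread between mice and allow no test. Both groups carried the same cells, strain and treatment apart from the housing, and the model is 1 transplanted line at a site outside the pancreas.

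Wnt proteins are lipid-modified ligands that act over short distances. Binding of a Wnt to a Frizzled receptor and an LRP co-receptor stops the destruction complex from breaking down beta-catenin, which then acts with TCF/LEF factors on target genes, while other Wnts signal through planar cell polarity and calcium branches. Sfrp proteins and Wif1 bind the ligands outside the cell, and Dkk proteins block the LRP co-receptors. In pancreatic carcinoma the pathway has been studied in both the malignant epithelium and the fibroblast-rich stroma.

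Promoters are shown for the genes of the family with the largest measured differences or bounds between the pools in each direction, Sfrp2 and Wnt2 on the higher side and Fzd9 and Wif1 on the lower side in the enriched pool. Each is the 250 bases before the annotated start, on the gene's own strand, from RefSeq on GRCm38.p6. Capitals mark matches on either strand to CTTTGA, a core of TCF/LEF sites, or to TATAAA, the TATA box. The Wnt2 promoter lies at chr6:18030446-18030695 on the minus strand, that of Sfrp2 at chr3:83766071-83766320 on the plus strand, that of Fzd9 at chr5:135251048-135251297 on the minus strand, and that of Wif1 at chr10:121033754-121034003 on the plus strand.
Wnt2: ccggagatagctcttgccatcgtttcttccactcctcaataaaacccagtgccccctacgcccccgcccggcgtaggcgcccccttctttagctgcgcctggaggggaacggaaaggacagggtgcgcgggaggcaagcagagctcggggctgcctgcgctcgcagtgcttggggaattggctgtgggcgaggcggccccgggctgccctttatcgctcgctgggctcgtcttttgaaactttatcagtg
Sfrp2: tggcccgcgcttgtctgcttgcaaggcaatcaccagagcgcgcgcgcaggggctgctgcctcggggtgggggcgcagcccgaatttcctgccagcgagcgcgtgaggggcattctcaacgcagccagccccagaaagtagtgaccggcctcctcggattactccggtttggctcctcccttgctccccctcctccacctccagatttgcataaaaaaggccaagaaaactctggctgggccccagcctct
Fzd9: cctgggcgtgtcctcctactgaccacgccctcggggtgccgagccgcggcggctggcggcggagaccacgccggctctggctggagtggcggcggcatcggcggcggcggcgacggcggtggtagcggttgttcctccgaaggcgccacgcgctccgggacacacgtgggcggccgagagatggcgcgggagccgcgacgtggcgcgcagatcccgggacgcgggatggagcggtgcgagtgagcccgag
Wif1: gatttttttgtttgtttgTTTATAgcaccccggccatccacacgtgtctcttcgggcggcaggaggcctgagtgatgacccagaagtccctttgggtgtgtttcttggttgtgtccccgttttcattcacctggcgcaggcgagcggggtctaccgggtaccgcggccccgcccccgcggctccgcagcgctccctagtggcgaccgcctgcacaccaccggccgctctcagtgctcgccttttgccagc

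Of these 4 promoters, the Wif1 sequence held the only match, a TATA box on the opposite strand, and none held CTTTGA. A promoter was found by symbol for 26 of the 38 genes, 29 promoters in all. CTTTGA was present in 4 of the 29 (13.8%), those of Dkk1, Fzd1, Wnt11 and Wnt5b, beside 13.8% of all 32851 promoters of the same length. The letters of these motifs do not overlap in the sequences shown. TATAAA was present in 5 of the 29 (17.2%), those of Dkk1, Dkk2, Fzd1, Wif1 and Wnt11, beside 12.4% of all. The family's promoters had a median GC content of 68.0% against 52.4% over all promoters, with 76.4% for Fzd9, 63.6% for both Wnt2 and Sfrp2, and 62.8% for Wif1. Both motifs were held by promoters of Dkk1, Fzd1 and Wnt11. Of these genes, Dkk1 was not above background in either pool, while Fzd1 and Wnt11 were measured in both.

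Levels are log2 processed intensities relative to the 75th percentile of each array, so that 0 is the level of a fairly bright probe. A difference is the enriched minus the standard environment level of the same probes, 1 being 2-fold. A gene counted as measured where a probe was well above background on both arrays. Where only 1 array was above background, the ratio is a bound: the bright level over either the gene's own dim signal or the lowest signal well above background on the dim array (-5.68 standard, -6.21 enriched), whichever was higher. The error after ± is the software's own spot error carried into the difference. It covers the reading of the spots, not mice, pooling or labelling, and was 0.08 to 0.35 for the family, with a median of 0.20.

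The arrays were on 1 slide, 77.2% of 43379 spots were well above background in the standard and 77.4% in the enriched pool, and no spot was saturated. The median SD over repeated spots was 0.06 and 0.07, and probes of 1 gene disagreed in their difference by a median SD of 0.17. All 10 carcinoma epithelium markers were measured in both pools, as were all the markers of skeletal muscle, fibroblasts, endothelium and macrophages, so this does not single out one cell type. Markers of other tissues differed greatly between the pools. All 14 skeletal muscle markers were lower in the enriched pool, with a median difference of -7.80, and their share of the summed signal was 4.58% in the standard pool against 0.10%. In bulk RNA, fewer cells of a type and less RNA per cell cannot be told apart.

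Of the 38 genes, 25 (65.8%) were measured in both pools, beside 72.4% of all 28785 genes. In the enriched pool 7 of the 25 were higher by 2-fold or more and 4 lower by as much. The shares were 28.0% and 16.0%, beside 5.71% and 9.46% of all 20852 measured genes. The other 14 differed by less than 2-fold. The median difference was -0.38, and 0.03 over all measured genes. The higher genes were the ligands Wnt6, Wnt7a, Wnt7b and Wnt10a and the inhibitors Sfrp1, Sfrp2 and Dkk3. The lower genes were Wnt4, the receptors Fzd9 and Fzd10, and Dkk2. Nearest to the threshold were Wnt6 (1.14) and Dkk2 (-1.37) on the inside, and Fzd5 (0.59) and Fzd4 (-0.98) on the outside. The smallest of the 11 differences past 2-fold relative to its error was 5.66 times that error. These genes were picked for a difference of at least 1 and the family's median error was 0.20, so a large ratio follows from the threshold. The error also leaves out disagreement between probes, which was larger for Wnt6 (SD 0.56) and Fzd10 (SD 0.48).

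Another 4 genes were above background in the standard pool only, with bounds of at least 2-fold for Wif1 and Dkk4. This is 2 of 4, beside 56.6% of all 991 such genes. Another 3 were above background in the enriched pool only, with a bound of at least 2-fold for Wnt2. This is 1 of 3, beside 13.1% of all 940 such genes. The remaining 6 (Wnt3, Wnt3a, Wnt8a, Wnt8b, Fzd3 and Dkk1) were not well above background in either pool, which was also true of 20.8% of all genes. Wnt3, Wnt3a, Wnt8a and Wnt8b are ligands of the beta-catenin branch, and Dkk1 is the best known LRP blocker and itself a target of the pathway.

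**Figure D1:**
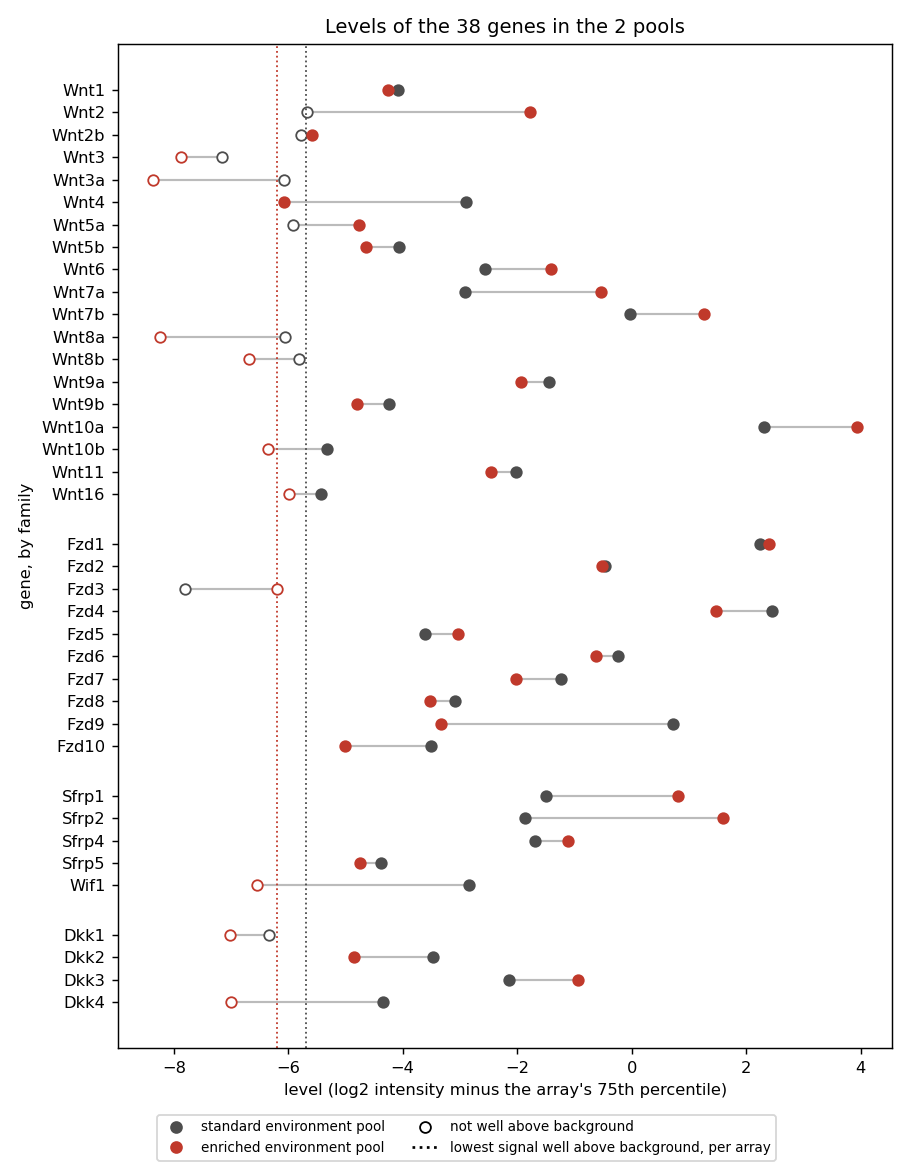
Level of each of the 38 genes in the standard (dark) and enriched (red) environment pool, as log2 intensity minus the 75th percentile of the array, grouped into ligands, Frizzled receptors, Sfrp proteins with Wif1, and Dkk proteins. Open circles are not well above background, and the dotted lines are the lowest signal well above background on each array (-5.68 and -6.21). Sfrp2, Wnt2 and Wnt7a lie to the right in the enriched and Fzd9, Wnt4 and Wif1 in the standard pool.

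Among the ligands, 10 of 19 (52.6%) were measured in both pools, beside 72.4% of all genes. Of these 10, 4 were higher by 2-fold or more, 1 was lower by as much and 5 lay in between. The shares over all measured genes were 5.71% higher and 9.46% lower. Wnt10a, a ligand of the beta-catenin branch active in skin, hair and teeth, had a level of 2.31 in the standard pool and 3.94 in the enriched pool. The difference was 1.63 ± 0.20, or 3.10-fold higher in the enriched pool, and 440th from the top of all measured genes. Its probe lies on chromosome 1 at 75043739 to 75043798 on mm7, the build of the array design. Wnt6, a ligand of epithelia, lies 19.1 kb from it on the same chromosome by the probes' positions. Its level was -2.56 in the standard pool and -1.42 in the enriched pool, a difference of 1.14 ± 0.15 or 2.20-fold. Its 2 probes were both higher in the enriched pool but unequal, by 0.74 and 1.54 (SD 0.56), so that the brighter probe alone would not reach 2-fold, nor did the difference under the normexp background correction, which adds 50 units to every signal (0.79).

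Both Wnt7 ligands were higher in the enriched pool. Wnt7a, which is known from the limb, the female reproductive tract and muscle stem cells, had a level of -2.91 in the standard pool and -0.54 in the enriched pool. The difference was 2.37 ± 0.21, or 5.18-fold, 147th from the top of all measured genes. Wnt7b, a ligand of lung, kidney and pancreatic epithelium, had levels of -0.04 and 1.27, a difference of 1.30 ± 0.20 or 2.47-fold. Each rests on 1 probe.

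Wnt4 was the measured ligand that was lower by 2-fold or more. Wnt4 acts in kidney and gonad formation, often outside the beta-catenin branch. Its level was -2.89 in the standard pool and -6.08 in the enriched pool, the latter only just above the lowest signal counted as above background. The difference was -3.19 ± 0.35, 324th from the bottom of all measured genes, and shrank to -1.46 under normexp.

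Wnt2, a ligand of lung, liver and vascular development, had the largest bound of the ligands. It was not well above background in the standard pool, at -5.67, and had a level of -1.78 in the enriched pool, 14.8-fold higher by the bound. Its standard level was above the lowest signal counted there, so the bound is the ratio of the gene's own signals and not a firm minimum. On the log2 scale the bound was 3.89, and 1.74 under normexp. The probe lies on chromosome 6 at 17929740 to 17929799 on mm7. Its neighbour by name, Wnt2b, was barely above background at -5.58 in the enriched pool beside -5.78 in the standard, at least 1.07-fold, and under normexp there was no bound above 1-fold (-0.19 on the log2 scale).

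Next come the ligands that mostly act through the planar cell polarity and calcium branches. Wnt5a was above background only in the enriched pool, at -4.77 beside -5.91, at least 1.88-fold higher. Its log2 bound of 0.91 became 1.23, past 2-fold, under quantile normalization and 0.03 under normexp. Wnt5b had levels of -4.07 and -4.65 in the standard and enriched pool, a difference of -0.58 ± 0.23 with probes at -0.67 and -0.49. Wnt11 had levels of -2.03 and -2.46, a difference of -0.43 ± 0.21. Neither Wnt5b nor Wnt11 reached 2-fold in any alternative processing.

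The other ligands were dim or differed little. Wnt1, the founding gene of the family, was read from repeated spots, 9 of them used, with levels of -4.08 and -4.26 and a difference of -0.18 ± 0.08. Wnt9a had levels of -1.44 and -1.93, a difference of -0.49 ± 0.16 with probes at -0.39 and -0.59. Wnt9b, which acts in the kidney and the face, had levels of -4.24 and -4.80, a difference of -0.56 ± 0.26. Both Wnt10b, a ligand that restrains fat cell formation, and Wnt16, which acts in bone, were above background only in the standard pool. Wnt10b had levels of -5.32 and -6.36, at least 1.84-fold brighter in the standard pool. Wnt16 had levels of -5.44 and -5.98, with a bound of 1.46-fold that is the ratio of its own signals and not a firm minimum.

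Several ligands lie in pairs in the genome, by the mm7 positions of their probes. Wnt6 and Wnt10a were higher together. Wnt1 and Wnt10b are 20.7 kb apart on chromosome 15, where Wnt1 differed by less than 2-fold and Wnt10b had only a bound, of 1.84-fold. Wnt9a and Wnt3a are 82.8 kb apart and Wnt9b and Wnt3 88.5 kb apart on chromosome 11, and in each pair the Wnt9 gene was measured while the Wnt3 gene was at background. Genes next to Wnt6 and Wnt10a in the RefSeq order did not share one direction. Ttll4 differed by 0.87, Cyp27a1 by -1.24, Prkag3 by -0.17, Cdk5r2 by -0.40 and Fev by -0.23, and Cryba2 was at background in both pools.

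**Figure D2:**
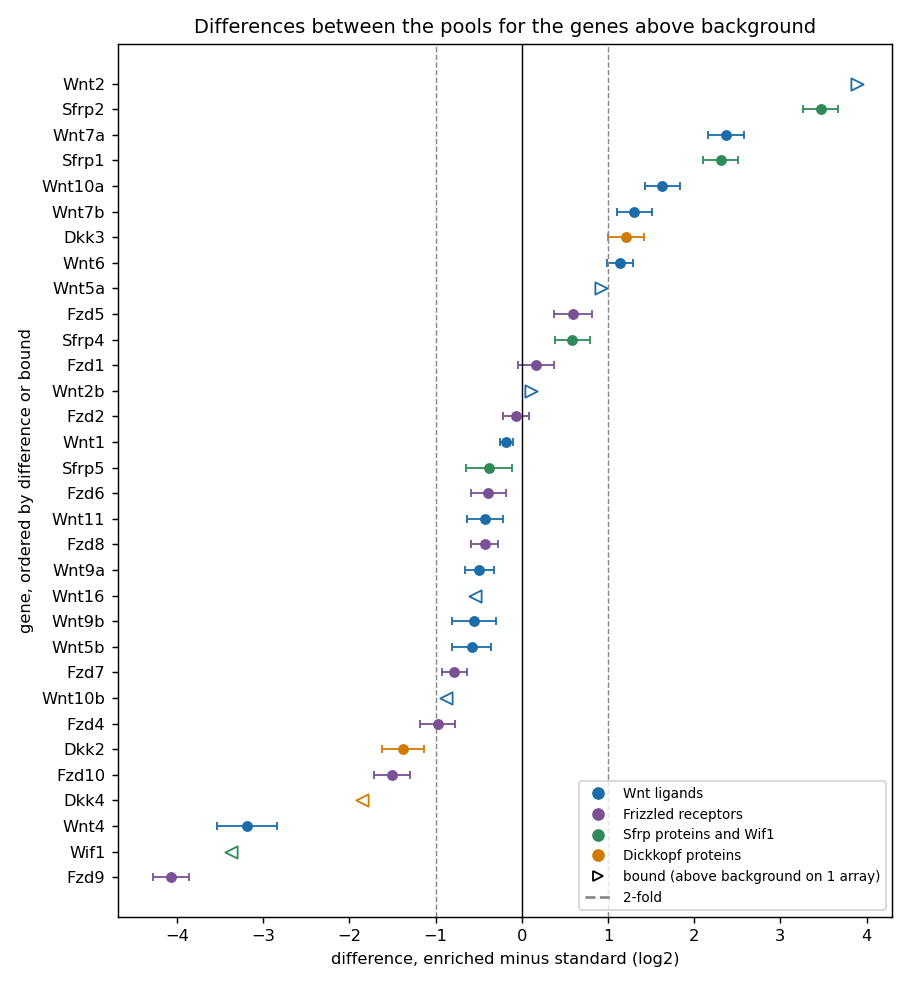
Difference in log2 level, enriched minus standard pool, for the 32 genes above background on at least 1 array, ordered by value. Circles are genes measured on both arrays with the software's spot error as bars, triangles are bounds for genes above background on 1 array, and dashed lines mark 2-fold. The range runs from Fzd9 at -4.07 to Sfrp2 at 3.47, with the bound of Wnt2 at 3.89.

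Frizzled receptors, the membrane proteins that bind Wnts, were measured more completely than the ligands, 9 of 10, beside 72.4% of all genes. In the enriched pool none was higher by 2-fold or more and 2 were lower by as much. The shares over all measured genes were 5.71% and 9.46%. Of the 9 receptors, 7 lay below 0, beside 9956 of all 20852 measured genes, and the median difference was -0.43. It lay between -0.43 and -0.33 over the 9 alternative processings, so no scaling turned the direction of the median.

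Fzd9, a receptor studied in brain, bone and the neuromuscular junction, had a level of 0.73 in the standard pool and -3.34 in the enriched pool. The difference was -4.07 ± 0.21, or 16.7-fold lower in the enriched pool, 204th from the bottom of all measured genes and the largest measured difference of the family. It rests on 1 probe, on chromosome 5 at 134220225 to 134220284 on mm7. Over the alternatives it ranged from -4.10 to -3.36. Fzd10, a receptor known from neural tissue and tumours, had levels of -3.50 and -5.00 and a difference of -1.50 ± 0.20, or 2.84-fold. Its probes gave -1.17 and -1.84 (SD 0.48), both lower in the enriched pool. Under normexp the difference was -0.87, under 2-fold.

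Fzd4, the receptor for norrin in blood vessels, was just short of 2-fold lower, with levels of 2.44 and 1.47 and a difference of -0.98 ± 0.20. It passed 2-fold in at least 1 alternative, where it reached -1.02. Fzd7, a receptor of stem cells and gut crypts, had mean levels of -1.24 and -2.02 and a difference of -0.78 ± 0.15. Its probes disagreed in size, at -0.29 for the dimmer and -1.27 for the brighter (SD 0.69), so the brighter probe alone would pass 2-fold. Both were lower in the enriched pool.

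The remaining receptors differed by less than 2-fold under every processing tried. Fzd8 had levels of -3.09 and -3.52 (difference -0.43 ± 0.16) and Fzd6, a polarity receptor, of -0.23 and -0.62 (difference -0.39 ± 0.20). Fzd2 had levels of -0.46 and -0.53, with probes on either side of 0 (-0.20 and 0.06). Fzd1 had levels of 2.24 and 2.40, a difference of 0.17 ± 0.20 that is within its error. Fzd5, a receptor of the gut and the eye, had levels of -3.62 and -3.03, a difference of 0.59 ± 0.22, from 1 probe, while its other probe was below background on both arrays.

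**Figure D3:**
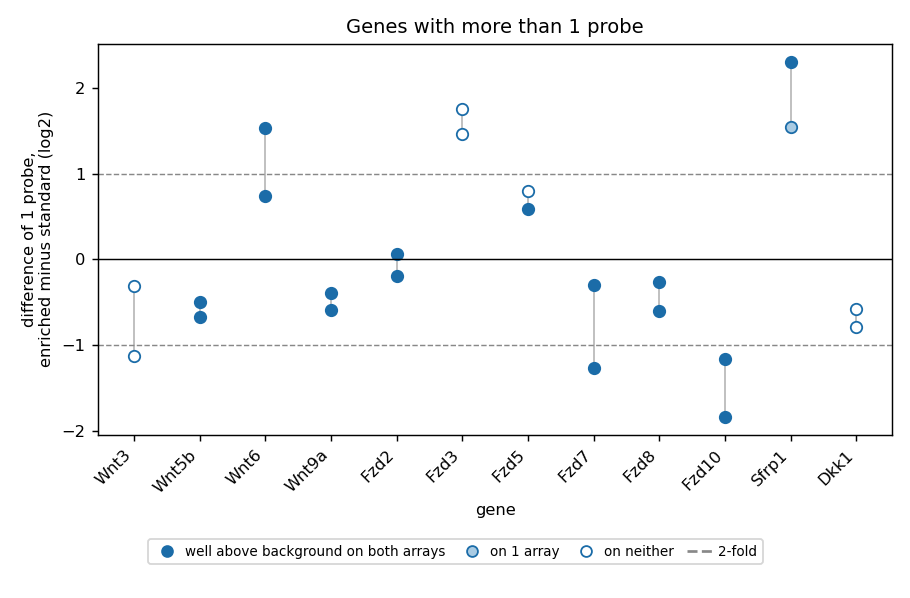
Difference of each probe, enriched minus standard pool on the log2 scale, for the 12 genes with more than 1 probe. Filled circles are probes above background on both arrays, pale circles on 1 array and open circles on neither; dashed lines mark 2-fold. Among probes above background on both arrays, only those of Fzd2 lie on opposite sides of 0. Among the same probes, Wnt6 and Fzd7 have 1 on each side of a 2-fold line.

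The secreted Wnt-binding inhibitors held the largest measured increase of the family. Sfrp2, a stromal protein made by fibroblasts, had a level of -1.86 in the standard pool and 1.60 in the enriched pool. The difference was 3.47 ± 0.21, or 11.0-fold higher, 24th from the top of all 20852 measured genes. It ranged from 3.19 to 3.52 over the alternatives. The probe lies on chromosome 3 at 83878918 to 83878977 on mm7.

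Sfrp1, the related inhibitor that is often silenced in carcinoma cells, had a level of -1.49 in the standard pool and 0.81 in the enriched pool. The difference was 2.31 ± 0.20, or 4.95-fold, 162nd from the top. Its other probe was dimmer and was above background only in the enriched pool, at -4.46 beside -6.00, in the same direction. Sfrp4, which acts in bone, had levels of -1.70 and -1.11 and a difference of 0.59 ± 0.21. Sfrp5, an adipose and endodermal inhibitor, had levels of -4.37 and -4.75 and a difference of -0.38 ± 0.27. The median of these 4 measured genes was 1.45, between 0.59 and 2.31 over the alternatives.

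Wif1 went the other way. This inhibitor, known from cartilage and bone, had a level of -2.83 in the standard pool and was below background at -6.55 in the enriched, at least 10.3-fold brighter in the standard pool. The log2 bound was 3.37, and 1.41 under normexp. Its probe lies on chromosome 10 at 120496251 to 120496310 on mm7, and its promoter is the sequence above with a TATA box match.

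The Dickkopf genes were split. Dkk3, a divergent member that does not bind LRP co-receptors like the others, had a level of -2.15 in the standard pool and -0.94 in the enriched pool, a difference of 1.21 ± 0.21 or 2.31-fold higher. Under normexp the difference was 0.97, just under 2-fold. Dkk2 had levels of -3.47 and -4.85, a difference of -1.37 ± 0.24 or 2.59-fold lower, and -0.81 under normexp. Dkk4 was above background only in the standard pool, at -4.35 beside -7.00, at least 3.62-fold brighter there, with a log2 bound of 1.86 and of 0.89 under normexp. The LRP blockers that were measured or bounded, Dkk2 and Dkk4, were both lower in the enriched pool.

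The higher and lower genes of the family also differed in brightness. Of the 10 measured genes with a mean level below -2, none was higher by 2-fold or more and 3 were lower by as much, beside 6.01% and 10.8% of all genes in that range. Of the 15 brighter ones, 7 were higher and 1 (Fzd9) lower by 2-fold or more, beside 5.48% and 8.47% of all genes. The median difference of all genes was -0.08 below and 0.10 above that level, and that of the family -0.50 and 0.59. The split depends on the cut, as Wnt6 (levels of -2.56 and -1.42) lay just above it. The mean level also includes the enriched level, so a difference itself shifts a gene's mean. The part of brightness in the values of the family was not tested.

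**Figure D4:**
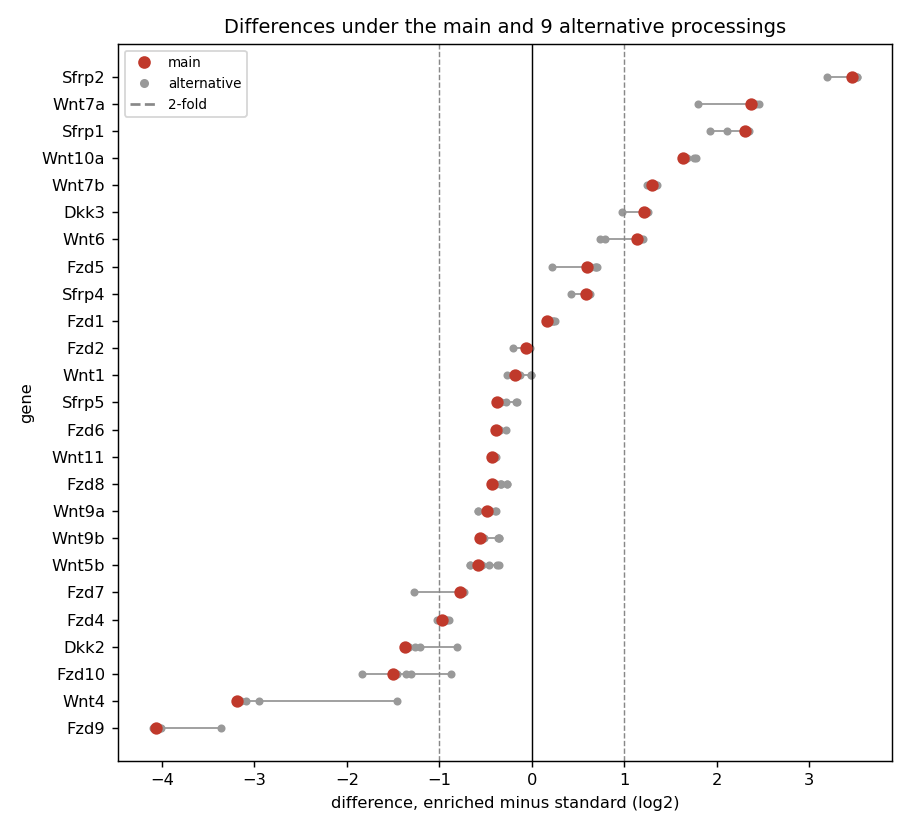
Difference of each of the 25 measured genes, enriched minus standard pool on the log2 scale, as reported (red) and under 9 alternative processings (grey); dashed lines mark 2-fold. All 25 keep their sign in every alternative that gave a value, and 7 of the 11 genes at least 2-fold apart stay so in all of them.

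The rest of the pathway was described through 8 lists of genes, each by its count past 2-fold and its median. These counts stand beside 5.71% higher and 9.46% lower over all measured genes. Other secreted or anchored inhibitors had 8 of 12 genes measured, 1 higher and 1 lower, with a median of 0.16 that fell below 0 under normexp (-0.03) and with no filter on dim probes (-0.16). Apcdd1, a membrane inhibitor and target of the pathway, was higher (-0.07 and 1.24, difference 1.30 ± 0.20), and Dkkl1, a relative of Dkk3, lower (-1.36 and -2.48, difference -1.12 ± 0.21). Frzb, the Sfrp relative also known as a cartilage protein, was above background only in the standard pool, at -1.62 beside -6.86, at least 24.0-fold brighter there. Notum, the enzyme that strips the lipid from Wnts, was at least 2.43-fold brighter and Sostdc1, an LRP-binding inhibitor, at least 1.82-fold brighter in the standard pool, and Cer1 was at background. No inhibitor of the list was above background in the enriched pool alone.

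Co-receptors and alternative receptors had 9 of 10 genes measured, with no gene higher, 1 lower and a median of -0.59. That median is the value of Mcc, a gene of the list that is not itself a receptor. Musk, the muscle kinase with a Frizzled-like domain at the neuromuscular junction, had levels of -3.99 and -5.50 and a difference of -1.52 ± 0.34. Lrp5, the co-receptor, had levels of 0.18 and -0.79 and a difference of -0.97 ± 0.20, just under 2-fold. Its partner Lrp6 differed by 0.44, and Ror1 was at background in both pools.

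R-spondins amplify Wnt signals through Lgr receptors by removing the ligases that clear Frizzled from the membrane, and 7 of 9 genes of this group were measured with a median of 0.06. Lgr5, the intestinal and hair follicle stem cell receptor, had levels of -3.88 and -1.37, a difference of 2.51 ± 0.22 or 5.69-fold higher in the enriched pool. Lgr6 had levels of -4.15 and -5.67, a difference of -1.52 ± 0.23 with an SD of 0.46 between its 2 probes. Rspo2 and Rspo3 were at background in both pools. The 5 genes for lipid attachment and secretion of Wnts were all measured and all above 0, beside 10896 of all 20852 measured genes. No gene was past 2-fold, and the median was 0.22. The largest values were 0.69 for Tmed5, a cargo protein, and 0.63 for Porcn, the enzyme that attaches the lipid.

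All 23 genes of the cytoplasmic signal and the destruction complex were measured, 1 higher and 1 lower, with a median of 0.03. Nkd2, a Dishevelled-binding inhibitor, differed by 1.22 ± 0.19 and Frat1, which binds the kinase GSK3, by -1.47 ± 0.15. Beta-catenin itself, Ctnnb1, differed by 0.38. Of 18 nuclear factors 17 were measured, with no gene higher, 1 lower and a median of -0.13. The lower gene was Tle2, a corepressor, at 3.54 and 2.27 (difference -1.27 ± 0.20), followed by Cby1, a beta-catenin antagonist, at -0.79. Pygo1, a partner of beta-catenin, was at least 2.65-fold brighter in the standard pool, where alone it was above background.

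Of 25 commonly used target genes 22 were measured, 3 at least 2-fold higher and 1 lower. Of the 22, 16 lay above 0, beside 10896 of all 20852 measured genes. The median was 0.46 and stayed between 0.36 and 0.57 over the alternatives. The higher genes were Lgr5, Apcdd1 and Cd44, an adhesion receptor with levels of 0.57 and 2.02 and a difference of 1.45 ± 0.10 over 3 probes. Lgr5 and Apcdd1 are the same values already counted in the R-spondin and inhibitor lists, as lists overlap. The lower gene was Tnfrsf19, a receptor of the TNF family, with levels of 0.22 and -3.12 and a difference of -3.34 ± 0.21, 10.1-fold lower. Axin2, the target most often taken as a readout of the beta-catenin branch, differed by -0.15 and Lef1 by 0.38, and Sp5 and Dkk1 were at background in both pools. The targets did not share one direction.

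Of the polarity and calcium genes, all 25 on the array were measured, 1 higher and 4 lower, with a median of 0.00 whose sign changed with the processing (-0.13 to 0.04). Camk2a, a calcium-dependent kinase, had levels of 2.47 and -3.67, a difference of -6.14 ± 0.21 or 70.5-fold lower in the enriched pool. Its relative Camk2g (-1.26), the Dishevelled antagonist Dact2 (-1.32) and the phospholipase Plcb4 (-1.29) were likewise lower by more than 2-fold, and Dact1, the relative of Dact2, was higher (1.13).

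**Figure D5:**
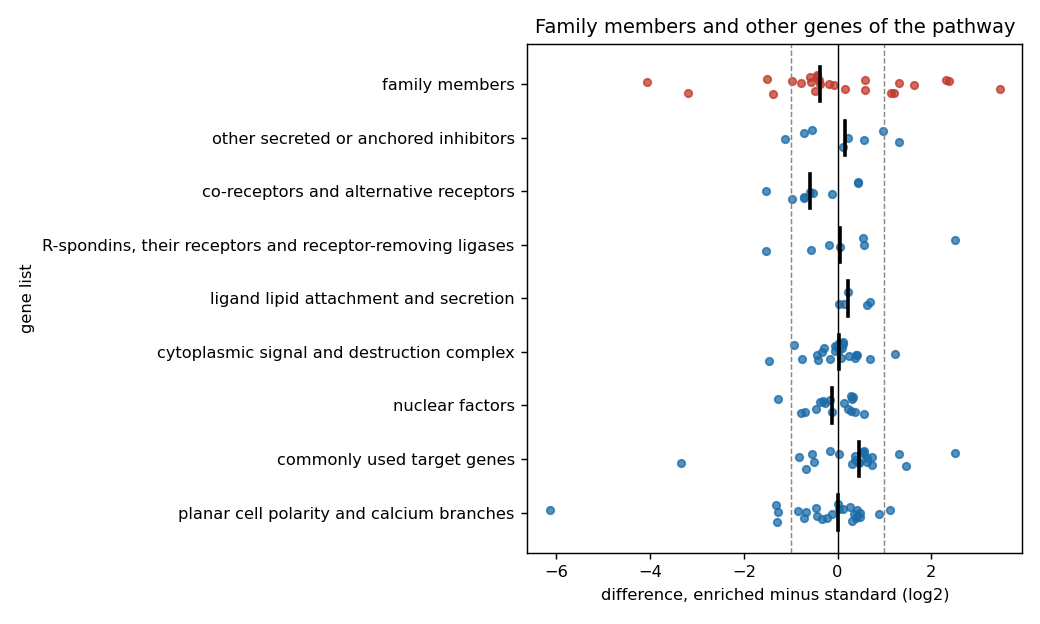
Difference of each measured gene, enriched minus standard pool on the log2 scale, for the 25 family members (red) and 8 lists of other pathway genes (blue), with a black bar at each median and dashed lines at 2-fold. The destruction complex (median 0.03) and nuclear factors (median -0.13) lie mostly within 2-fold, while the family spreads from -4.07 to 3.47.

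Markers of the cell types that a tumour under the skin can hold also differed between the pools. Over all measured genes, 5.71% were at least 2-fold higher and 9.46% lower in the enriched pool. Carcinoma epithelium markers were all at least 2-fold higher in the enriched pool, 10 of 10, with a median of 1.86 and 0.28% of the signal in the standard pool against 1.13% in the enriched pool. Msln (2.43) and Cdh1 (2.37) differed most. The 4 higher ligands, Wnt6, Wnt7a, Wnt7b and Wnt10a, differed by 1.14 to 2.37. Markers of epidermis and hair follicle were above background on both arrays for 7 of 12 genes, 4 of them at least 2-fold higher, with Krt17 at 4.42 and Krt14 at 3.15, a median of 1.40 and 0.01% of the signal against 0.03%. Other genes of this list went the other way. Trp63 differed by -0.63, and Dsg3 was above background in the standard pool only, at least 2.09-fold brighter there. Of the genes of differentiated epidermis, Krt1 was at background in both pools, while Krt10 (-2.88 and -2.73) and Lor (-4.75 and -4.57) were measured in both and Ivl was above background in the enriched pool. Krt25 and Krt71, of the inner root sheath, were at background in both pools.

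Fibroblast markers were 5 of 10 higher and 3 lower by at least 2-fold, with a median of 1.08 and 0.18% of the signal against 0.51%. Col3a1 (2.96) and Postn (2.95) differed most, and the lower genes were Pdgfrb (-1.18), Dcn (-1.03) and Pdgfra (-1.02). Adipocyte markers had a median of 2.21 over 7 measured genes, 5 higher and 1 lower, at 0.21% of the signal against 0.52%, with Cfd at 3.11 and Ucp1, the gene of brown fat, at -8.86. Macrophage markers were 1 of 7 at least 2-fold higher, with Cd14 at 1.16, Mrc1 at 0.97, a median of 0.34 and 0.03% of the signal against 0.05%.

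Skeletal muscle markers, all lower in the enriched pool, ranged from -8.56 to -3.08, led by Ckm (-8.56) and Myh2 (-8.47). Erythroid markers, at 0.20% of the signal against 0.00%, had a median of -5.59 with 4 of 4 measured genes lower, led by Slc4a1 (-7.40) and Hba-a1 (-5.72). Of the bone and cartilage markers, 5 of 8 were measured, 1 higher and 1 lower, with Bglap at -6.82, Col2a1 at 1.24 from probes that disagreed (SD 2.29), a median of -0.53 and 0.01% of the signal against 0.00%. The bone genes Ibsp and Dmp1 were above background in the standard pool only, at least 15.0-fold and at least 5.32-fold brighter there, and Sp7 in the enriched pool only, at least 1.02-fold. Endothelial markers were all 8 below 0, beside 9956 of all 20852 measured genes, and 2 were past 2-fold. Their median was -0.76, with 0.03% of the signal against 0.02%, and Flt1 (-1.60) and Tie1 (-1.05) were lowest. Nerve and Schwann cell markers were 6 of 8 measured with 2 lower, S100b most (-1.79), a median of -0.57 and 0.01% of the signal in each pool. Fzd9, Wnt4, Fzd10, Dkk2, Wif1 and Dkk4 were brighter in the standard pool. So were all measured muscle, erythroid and endothelial markers. The bone and cartilage list and the nerve and Schwann cell list had genes in both directions. The part of any of these cell types in the values of the Wnt family was not tested.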

How the data were processed

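Total RNA pooled from 6 mice per housing was labelled with Cy3 and hybridised to 1 Agilent array per pool, per the labels' protocols. The deposited scanner files hold a linear intensity per spot that the submitters' processing notes credit to Agilent Feature Extraction 10.7.1.1, with background-subtracted processed intensity, mean and background signals, error and quality marks per the file headers. The authors also deposited a log2 value for 30319 probes. It followed log2 of the processed intensity (r = 1.00 across probes, medians of 8.54 and 8.56), while its scaling and centring are not given in the sources used here. Background steps change dim spots most.

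Outlier-marked spots (66 and 70) and 1639 control spots were left out, spots of a probe were averaged, and probes above background on both arrays were averaged per gene. The 75th percentile was 753 in the standard pool and 984 in the enriched pool. Symbols were updated through unversioned RefSeq accessions for 22951 of 41174 probes, and the others kept the file's name. The family was taken as the genes whose symbol the rule matched. Probe positions are those of the design on mm7, whose sequence was not used here, so exons and UTRs of the probes are not given. Promoters are from a RefSeq table on GRCm38.p6. A gene was counted as different at 2-fold or more. No p-value was computed with 1 array per group.

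Members and lists were chosen with earlier results of these data known. Every family gene above background is named with its levels and the others once. In each pathway list the genes at least 2-fold apart and the 2 with the largest difference are named, and in each marker list the 2 with the largest difference. An item that this rule selects is not reported here. Sostdc1, Cer1, Ror1, Rspo2, Rspo3, Sp5, Lrp6, Ctnnb1, Axin2, Lef1, Krt1, Krt10, Krt25, Krt71, Lor, Ivl, Trp63, Dsg3, Pdgfra, Pdgfrb, Dcn, Ibsp, Dmp1, Sp7 and the neighbours of Wnt6 and Wnt10a fall outside this rule and were chosen after their values were seen. Mcc also falls outside this rule and was named because it gave its list's median. Alternatives covered scaling, background, filter, probe and outlier choices and the log2 table. Scaling, averaging and the 2-fold call were tested on data simulated from the standard array with known changes. Its background marks were left unchanged, so background calls, bounds and the alternatives were not tested. Python 3.11.15, pandas 2.3.3, R 4.3.3 and limma 3.58.1 (normexp, offset 50) were used.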

Additional observations from a re-analysis of the deposited data

Results flagged for a closer look

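The dimmer of the 2 probes of Sfrp1 was not used for the gene's difference, because it was not well above background in the standard pool (-6.00). In the enriched pool it was above background, with a level of -4.46. It is given here because it is a signal in data that the comparison left out, higher than in the standard pool. Its direction was that of the probe used, which differed by 2.31.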

How the results depend on the processing

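Results were recomputed under 9 alternatives. The count of family genes at least 2-fold higher was 7, and between 5 (normexp) and 10 (no filter on dim probes). The count of lower genes was 4, and became 9 with no filter on dim probes and 1 with the stricter filter, which keeps the upper 75% of probes by level and drops Wnt4, Fzd10 and Dkk2. The family's median of -0.38 became -0.16 under quantile normalization, -0.17 in the authors' deposited log2 table and 0.049 under the stricter filter, so that its sign depends on the dim genes. The median of the measured ligands, -0.30, became 1.14 under the stricter filter and -0.49 with no filter, and that of the measured Dkk genes, -0.08, became 1.21 and -1.03. The median of all measured genes moved between -0.11 and 0.12 with the processing. Counts over all genes ranged from 669 to 1672 higher and from 1322 to 3796 lower, against 1190 and 1972. Of the 11 family genes at least 2-fold apart, 11 kept their sign and 7 stayed past 2-fold wherever a value was given. The exceptions were Dkk2, Dkk3, Fzd10 and Wnt6, all 4 under 2-fold with normexp, and Wnt6 also with the brightest probe. Of the 14 under 2-fold, 12 stayed so, and Fzd4 (-1.02) and Fzd7 (-1.27) passed it in at least 1 alternative. Normexp, which adds 50 units to every signal, shrinks differences of dim genes by construction.

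No paired analysis was possible because each housing has 1 pool and the replicate number 1 is only a name. Leaving out an array leaves nothing to compare. Pools of 6 mice on 1 array each show a difference between these pools and not its spread between mice. Signal over background limits the family most at the dim end: 6 genes have no level in either pool and 7 only a bound.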

Other observations

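A pair of probes outside the family rule carried a family name only in their description. A clone described as Wnt2b, with its probe on chromosome 3 at 104754415 to 104754474 on mm7, had a level of -3.13 in the standard pool and -4.58 in the enriched pool, a difference of -1.45. The probe named for Wnt2b itself was above background only in the enriched pool. A transcript described as similar to human FZD8 had levels of -0.89 and -1.64, a difference of -0.76. Its probe lies on chromosome 11 at 94448996 to 94449055 on mm7, while the probes named for Fzd8 lie on chromosome 18, so it is not read as Fzd8.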
